A study of Homo sapiens with 2 samples.

Results

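MEIS, PBX and PKNOX proteins are the cofactors of HOX transcription factors. They belong to the TALE class of homeodomain proteins, named for a short loop of extra amino acids inside the homeodomain. A PBX protein binds DNA beside a HOX protein, and a MEIS or PKNOX protein joins PBX to form a larger complex on DNA and to hold PBX in the nucleus. In acute myeloid leukaemia (AML), MEIS1 is best known as the partner of HOXA9, and high levels of both mark many cases. In most tissues an active promoter that is rich in CpG dinucleotides carries little DNA methylation, whereas the transcribed part of a gene is usually methylated.

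The genes described here are MEIS1, MEIS2, MEIS3, PBX2, PBX3, PBX4, PKNOX1 and PKNOX2, which are 8 of the 20162 protein-coding genes in the annotation used. They were taken by name as a gene family, with MEIS1 as the reference for its paralogues. MEIS1 is the main gene of the study, which had picked it, among others, for lower promoter methylation in these same libraries, so its values are not independent evidence of that direction. Every CpG within 2 kb of the transcription start site (TSS) and in the gene body was taken, in GRCh37 coordinates, which gave 12398 of the 28217448 CpGs listed. Of these, 11331 had more than 5 reads in both lines and were used. The TSS was that of the transcript that starts farthest upstream, and the gene body was the rest of the gene outside the promoter window of 2 kb on either side.

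Whole-genome bisulfite sequencing had been done on a pair of established cell lines grown from AML. OCI-AML3 is labelled as DNMT3A mutant, with a heterozygous missense change per the study, and AML5 (OCI-AML5 in the labels) as DNMT3A wild type. DNMT3A is an enzyme that places methyl groups on unmethylated CpGs. Both lines were grown untreated in DMEM with serum, and each gave 1 library, so there were no replicates and each difference below is a difference between these 2 libraries. Genotype, line and library cannot be told apart. Expression was not analysed here, so the labelled cell type was not checked on marker genes. The libraries held 902802339 calls for OCI-AML3 and 894828667 for AML5, with a median of 27 and 30 calls per nuclear CpG. At those medians a CpG without a methylated call could still be methylated at up to 11.1% and 10.0%. Mitochondrial CpGs read as methylated in 0.168% and 0.101% of calls.

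A methylation level below is the mean over CpGs of the share of methylated calls, with the SD over CpGs. Intervals are 95% intervals for the difference in the share of all calls (Newcombe), always OCI-AML3 minus AML5, and cover counting error only. Fisher's exact test was run at each CpG, two-sided, with Benjamini-Hochberg adjustment over all 24454751 nuclear CpGs read more than 5 times in both lines, and a CpG was called below an adjusted p of 0.05. This exact test compares 2 libraries, not 2 genotypes.

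The stretches of sequence on which several results turn are shown first. Each is 150 bases from the plus strand of GRCh37, written 5′ to 3′, and is the part of a differentially methylated region (DMR) that held the most CpGs called by the exact test in the direction of that region. Capitals mark the CpGs called in that direction, and all other bases, CpGs that were not called included, are in lower case. Stretches in annotated UTRs were passed over.
MEIS1, intron 6, chr2:66673095-66673244: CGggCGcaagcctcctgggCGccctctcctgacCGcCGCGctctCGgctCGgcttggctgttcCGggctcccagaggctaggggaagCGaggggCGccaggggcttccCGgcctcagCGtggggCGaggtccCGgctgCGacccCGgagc
MEIS1, upstream, chr2:66660050-66660199: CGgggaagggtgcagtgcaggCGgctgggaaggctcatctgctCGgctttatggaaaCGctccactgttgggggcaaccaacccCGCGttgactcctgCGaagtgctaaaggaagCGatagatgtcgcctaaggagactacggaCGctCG
PBX2, upstream, chr6:32159669-32159818: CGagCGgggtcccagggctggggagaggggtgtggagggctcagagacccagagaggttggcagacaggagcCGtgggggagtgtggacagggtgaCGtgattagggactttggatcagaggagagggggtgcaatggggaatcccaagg
PBX3, intron 2, chr9:128651528-128651677: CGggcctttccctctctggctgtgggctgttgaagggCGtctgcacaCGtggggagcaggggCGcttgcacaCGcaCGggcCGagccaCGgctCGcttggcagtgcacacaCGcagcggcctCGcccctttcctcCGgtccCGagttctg

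Because the stretches were picked for their called CpGs, the counts, levels and p given for them illustrate the regions and are not independent support. All 17 CpGs of the MEIS1 intron 6 stretch were called lower in OCI-AML3. No CpG of it stood above 42.4% in OCI-AML3 or below 77.3% in AML5, so the lines did not overlap at any of them. At the CpG with the largest difference, the C at position 66673182 of chromosome 2, 2 of 51 calls were methylated in OCI-AML3 and 20 of 20 in AML5 (Fisher's exact test, adjusted p = 1.01e-13). The MEIS1 upstream stretch went the other way, with 10 of its 12 CpGs called higher and means of 51.0% for OCI-AML3 against 10.7% for AML5. In OCI-AML3 these CpGs stood between 32.5% and 56.1%, an intermediate level rather than full methylation. The 4 CpGs of the PBX2 stretch were at 0.845% and 75.6% on average, and those of the PBX3 stretch at 82.2% and 35.3%.

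Across the 8 promoters, 7 had a lower level in OCI-AML3 than in AML5, and MEIS1 alone had a higher one. A lower level in OCI-AML3 was the common case, found in 84.7% of the 19667 promoters with at least 10 usable CpGs. The median difference of the 8 promoters was -6.56 points, against -4.68 points over all promoters. The PBX2 promoter was lower by over 20 points, as were 8.61% of all promoters, and none was higher by over 20 points, as were 1.79%. All 8 gene bodies were lower in OCI-AML3, as were 92.9% of the 18292 gene bodies measured, with a median difference of -8.64 points against -4.93 points over all bodies. The bodies of MEIS1 and PBX2 were lower by over 20 points, as were 7.58% of all bodies, and no member's body was higher by that much, as were 0.541%.

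**Figure D1:**
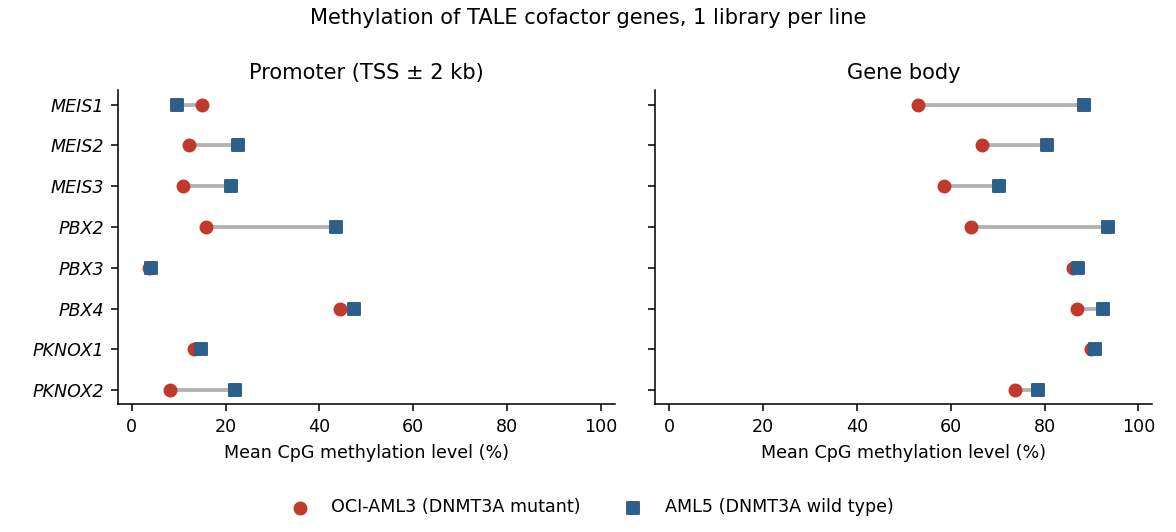
Mean CpG methylation level (%) of each of the 8 genes in the promoter window (left) and the gene body (right), with a circle for OCI-AML3, a square for AML5 and a grey line for the difference. In the bodies the longest lines are those of MEIS1 (53.1% against 88.3%) and PBX2 (64.3% against 93.5%), and MEIS1 is the promoter whose circle lies to the right of its square.

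At single CpGs, 1744 of the 11331 (15.4%) were called lower in OCI-AML3 by the exact test and 417 (3.68%) higher, close to the 14.7% and 3.86% of all CpGs tested. DMRs lower in OCI-AML3 held 46.8% of these CpGs, against 49.4% of all CpGs tested, and DMRs higher in OCI-AML3 held 8.05%, against 8.52%. Pooled over their CpGs, then, the 8 genes stood near the background, and the members differed widely among themselves. Pooling weighs each gene by its number of CpGs, and PKNOX2 alone held 3597 of the 11331. Taken per gene, the median body difference of -8.64 points was larger than the -4.93 points over all bodies. The share of CpGs inside a lower DMR was 80.8% for MEIS1, 73.1% for MEIS2, 71.9% for MEIS3 and 72.3% for PBX2. For PKNOX1 and PBX3 it was 12.8% and 15.3%, with PKNOX2 (43.0%) and PBX4 (51.7%) between. A DMR needed no minimum difference, so this share does not measure the size of a change. Of the lower DMRs, 42 of 84 in MEIS1 and 34 of 110 in MEIS2 differed by over 20 points. In MEIS3 1 of 8 did, and in PBX2 2 of 3.

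**Figure D2:**
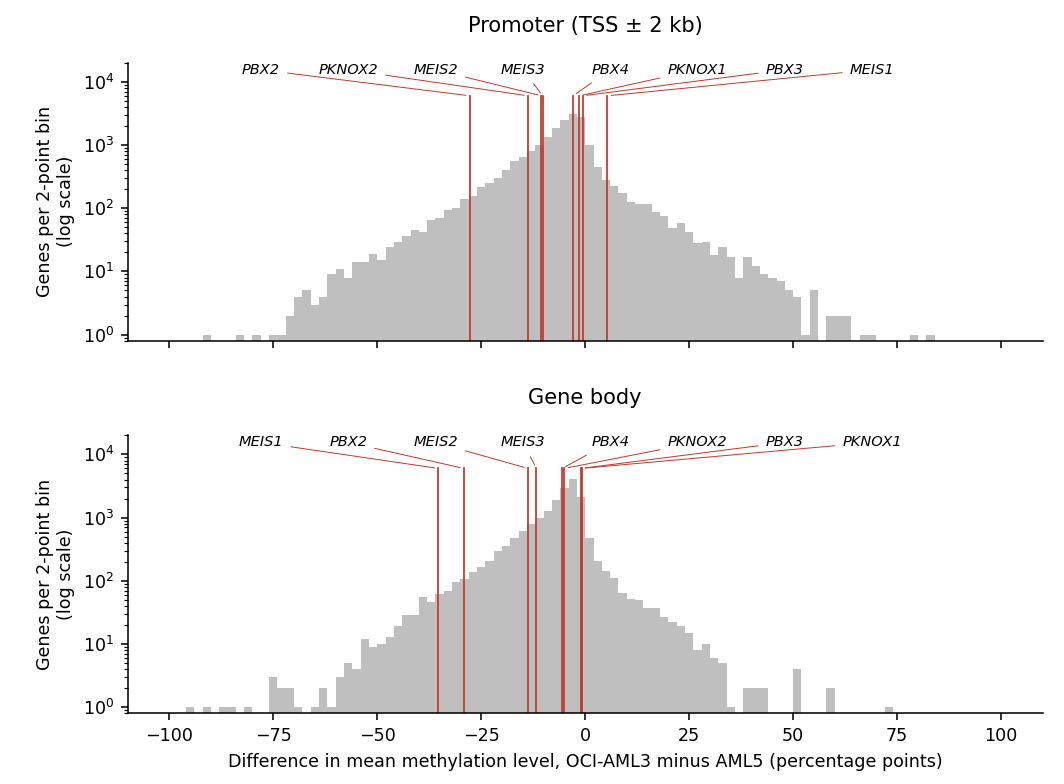
Number of protein-coding genes (log scale) per 2-point bin of the difference in mean methylation level, OCI-AML3 minus AML5, for promoters (top) and gene bodies (bottom), with a red line at each of the 8 genes. PBX2 at -27.8 points is the member farthest to the left for promoters and MEIS1 at -35.3 points for bodies, while PBX3 and PKNOX1 sit next to 0 in both.

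MEIS1 (ENSG00000143995, chr2:66660584-66801001, plus strand) is the member most studied in leukaemia. Its gene body stood at 53.1% ± 32.9 (SD, 1057 CpGs) in OCI-AML3 and 88.3% ± 16.7 in AML5, with an interval of the difference in calls from -41.2 to -39.9 points. Of the 1057 CpGs, 474 were called lower and 2 higher by the exact test. Of all gene bodies, 1.51% had a lower difference, a place that describes a gene picked on these libraries. The change was not spread evenly along the gene. From 2 to 15 kb after the TSS, a stretch singled out after its profile was seen, OCI-AML3 stood at 21.7% and AML5 at 88.1%, and 307 of 342 CpGs were called lower with 0 higher. Over the same distance 8.04% of the 12986 genes of at least 15 kb were lower by over 20 points, and MEIS1 had rank 4 from the lowest difference. Beyond 15 kb the levels were 68.1% and 88.5%, a difference of -20.4 points.

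The depth in MEIS1 in the body was 24.6 calls per CpG for OCI-AML3 and 27.01 for AML5. The surroundings of MEIS1 did not share the difference. Over 500 kb on either side, outside the gene and its promoter window, OCI-AML3 stood at 56.6% and AML5 at 56.8%, with 570 CpGs called lower and 589 higher of 5573. In the 10 kb after the gene end the levels were 22.1% and 21.8%, and in the 10 kb before the promoter window 45.5% and 53.3%.

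**Figure D3:**
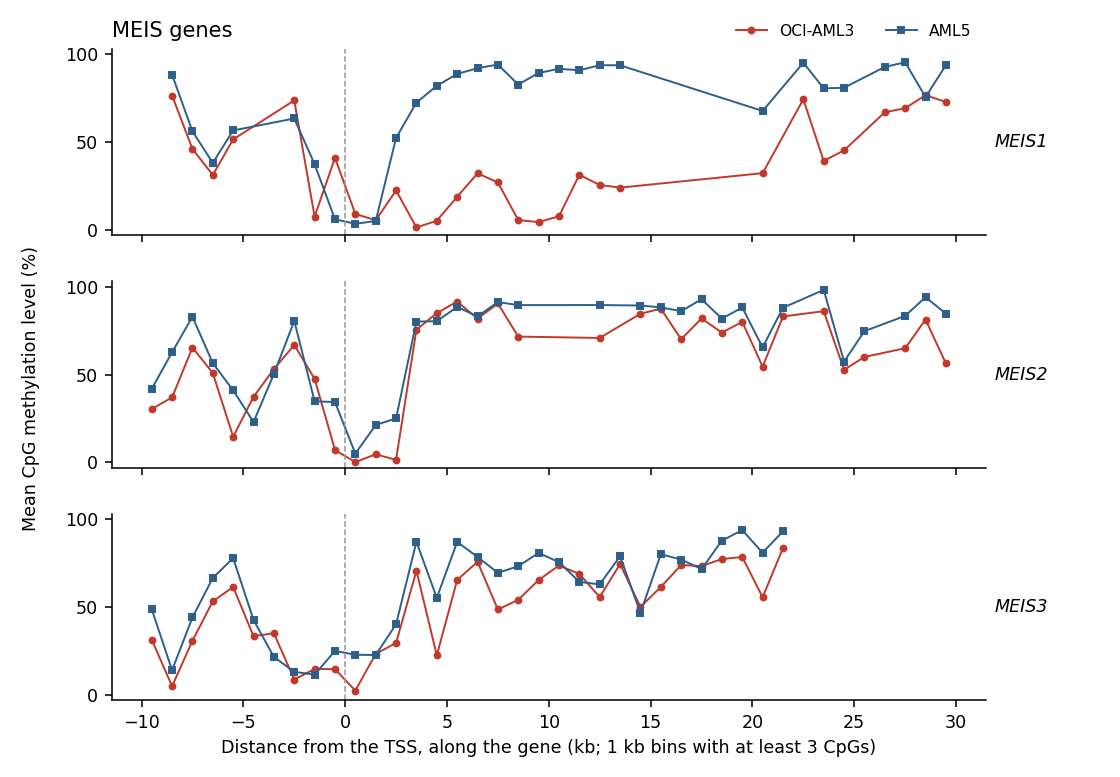
Mean CpG methylation level (%) in 1 kb bins with at least 3 CpGs, against the distance from the TSS along the gene (kb), for MEIS1, MEIS2 and MEIS3, with circles for OCI-AML3 and squares for AML5. In MEIS1 the AML5 line climbs to over 80% within 5 kb of the TSS while the OCI-AML3 line stays low to about 14 kb (25.5% against 93.8% in the bin at 12 kb), and in MEIS2 both lines climb together at 3 kb.

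Within the canonical MEIS1 transcript, the parts from intron 1 to intron 6 differed by more than those from intron 7 on that held at least 10 CpGs. Exon 1, which reaches into the promoter window, stood at 12.8% in OCI-AML3 and 33.5% in AML5. Intron 1 stood at 10.3% in OCI-AML3 and 65.7% in AML5, exon 2 at 4.88% and 83.3%, and intron 2 at 20.8% and 89.6%. The largest differences were in parts with few CpGs, exon 4 at 3.57% and 97.1% over 2 CpGs and exon 6 at 0 and 88.5% over 4. Intron 6, which is long and holds a pair of CpG-dense islands, stood at 31.8% and 91.1%. From intron 7 on the gap narrowed, with 69.1% and 88.3% in intron 7, 68.5% and 89.3% in intron 8 and 64.9% and 85.9% in intron 9. In the last exon, exon 13, the levels were 82.6% and 92.3%, and 2 of 22 CpGs were called lower.

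CpG-dense islands were defined by sequence alone, as joined windows of 500 bp with at least 25 CpGs each. The 8 genes and their promoter windows held 23 of them, of which 6 were lower in OCI-AML3 by over 20 points, against 7.09% of the 55303 islands of the genome, and 0 were higher by over 20 points, against 2.08%. Of the 6, 4 belonged to MEIS1. The island in introns 2 to 4, chr2:66666251-66668102, stood at 29.4% in OCI-AML3 and 91.4% in AML5. The islands in intron 6, chr2:66671478-66671948 and chr2:66672237-66674034, stood at 23.6% and 88.9% and at 25.6% and 93.8%. Of the 119 CpGs in the last of these, 115 were called lower, and its sequence is the source of the first stretch printed above.

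The islands of MEIS1 were not the least methylated part of this stretch in OCI-AML3. Between 2 and 15 kb after the TSS, the 231 CpGs inside islands stood at 26.9% and the 111 CpGs outside islands at 10.9%, whereas in AML5 the order was reversed, with 92.4% inside and 79.2% outside. The depth in OCI-AML3 was 46.1 calls per CpG inside and 19.3 outside islands, against 36.5 and 25.6 in AML5, and its part in this order was not tested. In the bins at 3 and 9 kb, which lie between islands, OCI-AML3 stood at 1.30% and 4.35% and AML5 at 72.5% and 89.4%.

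The annotated starts of MEIS1 transcripts fell on both sides of this pattern. At the most upstream start, with 500 bp on either side, OCI-AML3 stood at 36.5% and AML5 at 3.88%, and 31 of 51 CpGs were called higher and 1 lower. Around the cluster of 4 starts that includes the canonical one, 1673 bp downstream, the levels were 12.3% and 22.96%. At the alternative starts farther in, OCI-AML3 stood below AML5 throughout: 3.32% against 73.9% at the cluster that begins 3465 bp after the TSS, 4.35% against 89.4% at 9323 bp, and 28.8% against 91.4% at 11741 bp. The starts between 5869 and 7226 bp were at 24.0% to 27.5% in OCI-AML3 and 87.7% to 94.4% in AML5. The antisense transcript MEIS1-AS2 (chr2:66666220-66671353) lies within the stretch from 2 to 15 kb, so the CpGs in it belong to both genes.

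The MEIS1 promoter held changes in both directions. Its mean of 15.02% ± 20.5 (SD, 190 CpGs) in OCI-AML3 against 9.67% ± 17.1 in AML5 averages them. The interval of the difference in calls ran from 3.68 to 5.80 points. The direction of this window mean is the opposite of that for which the study picked the MEIS1 promoter. The study also required higher expression and drew on methylation arrays of patients, and neither was examined here. The TSS used here comes from a later annotation and lies 1673 bp upstream of the canonical one, so the regions compared need not match. The size of the mean difference at the MEIS1 promoter, 5.35 points, depended on the window and the depth, with 16.2 points for 1000 bp on either side, 7.98 points for the 2000 bp upstream only, 3.21 points around the canonical TSS and 2.36 points with at least 10 reads. The upstream island, chr2:66659001-66659822, stood at 10.7% in OCI-AML3 and 31.4% in AML5, with 16 CpGs called lower and 0 higher. The island over the TSS, chr2:66659979-66662503, stood at 15.99% and 4.09%, with 37 CpGs called higher and 7 lower, and the MEIS1 upstream stretch printed above lies in it. In 1 kb bins OCI-AML3 stood at 7.45% against 37.4% between 2 and 1 kb before the TSS, at 41.0% against 5.95% in the last kb before it and at 9.03% against 3.38% in the first kb after it. The antisense transcript MEIS1-AS3 starts within the promoter window, so the most upstream start of MEIS1 and that of MEIS1-AS3 cannot be told apart by these counts.

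A low-methylation domain, the run of CpGs nearest the TSS with a smoothed level under 20%, described the same shift. For MEIS1 it spanned 3138 bp in AML5, from -1061 to 2076 bp relative to the TSS. In OCI-AML3 it spanned 2001 bp, from 258 to 2258 bp after the TSS. With a limit of 40% in place of 20%, chosen after seeing the data, the MEIS1 domain of OCI-AML3 ran without a break from -131 to 14720 bp relative to the TSS, whereas that of AML5 ended at 2210 bp. The limit thus decides whether the MEIS1 domain is shorter or longer in OCI-AML3.

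**Figure D4:**
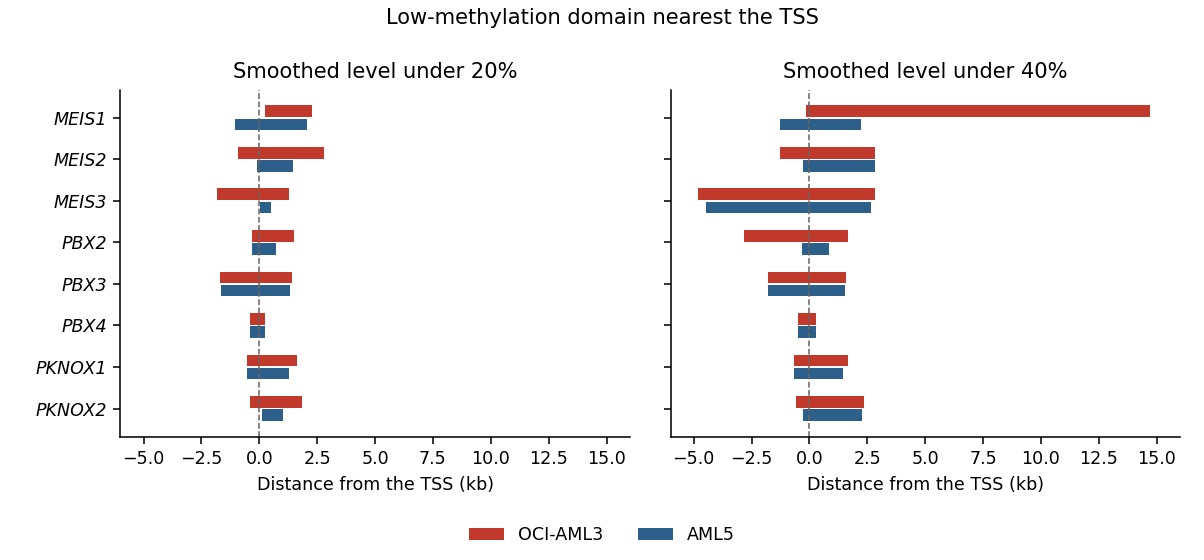
Span of the low-methylation domain nearest the TSS (kb from the TSS, along the gene) for each of the 8 genes, with the smoothed level under 20% (left) or under 40% (right), in red for OCI-AML3 and in blue for AML5. The MEIS1 domain of OCI-AML3 reaches 14.7 kb under the 40% limit, and those of PBX3 and PBX4 have nearly the same length in both lines.

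The other genes most like MEIS1 were sought by the root mean square difference in the levels of both lines over 20 bins of 1 kb, from 5 kb before to 15 kb after the TSS, among the 5611 genes of at least 15 kb with at least 3 CpGs in every bin. MEIS1 itself had 17 such bins. The nearest were TRIM58 (27.3 points), IRF8 (27.4 points), SUSD4 (28.1 points), KIF26A (29.0 points) and ZNF681 (30.4 points), against a median of 51.1 points. A near rank is relative to other genes and does not mean that a gene shared the MEIS1 pattern. The TRIM58 promoter stood at 71.4% in OCI-AML3 and 24.8% in AML5, and that of IRF8 at 2.10% and 8.11%. The MEIS1 promoter stood at 15.02% and 9.67%. IRF8, a transcription factor of the monocyte lineage that the study had also picked on these libraries, stood at 49.2% and 88.5% in its body. Of the paralogues that could be ranked, PKNOX2 came closest with 32.0 points at rank 8, followed by MEIS3 with 37.02 points at rank 120. The gap between the lines was still far smaller in PKNOX2 than in MEIS1. From 2 to 15 kb after the TSS, PKNOX2 stood at 55.1% in OCI-AML3 and 76.0% in AML5, and MEIS1 at 21.7% and 88.1%. PBX4 stood at 55.2 points, rank 4918, and PKNOX1 at 51.6 points, rank 3088. Over only the 17 bins of MEIS1, PKNOX1 had rank 2619 and PKNOX2 rank 12.

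MEIS2 (ENSG00000134138, chr15:37181405-37393500, minus strand) encodes the closest relative of MEIS1 and lies in a gene desert. Its promoter stood at 12.2% ± 24.4 (SD, 195 CpGs) in OCI-AML3 and 22.7% ± 24.6 in AML5, with an interval of the difference in calls from -16.5 to -13.5 points. In the promoter window 40 CpGs were called lower and 13 higher by the exact test. The body stood at 66.7% ± 32.6 (SD, 1546 CpGs) and 80.5% ± 24.6, with 305 CpGs called lower and 28 higher. Over 500 kb on either side MEIS2 stood at 58.7% and 71.7%, a difference of -13.0 points, so the body differed about as much as its surroundings.

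The 3 most upstream clusters of MEIS2 starts, of 16, were nearly free of methylation in OCI-AML3, and the first and the third were partly methylated in AML5. At the most upstream cluster OCI-AML3 stood at 0.299% and AML5 at 19.5%, with 29 of 84 CpGs called lower, and at the cluster of 6 starts 1578 bp downstream at 1.41% and 24.2%, with 34 of 77 called lower. At the canonical start between them the levels were 0.0912% and 4.88%, and 0 of 62 CpGs were called by the exact test, while the interval of the difference in calls ran from -4.30 to -1.93 points. At the next cluster OCI-AML3 stood at 41.3% and AML5 at 53.4%. From the exon 2 region onward both lines were methylated: exon 3 stood at 90.7% and 91.4% and intron 3 at 89.1% and 88.6%. The long introns 7, 8 and 9 then stood at 72.8%, 65.8% and 67.3% in OCI-AML3 and at 85.0%, 81.5% and 83.6% in AML5. Between 2 and 15 kb after the TSS, where MEIS1 differed by -66.4 points, MEIS2 stood at 59.9% and 67.2%.

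The MEIS2 low-methylation domain was 3709 bp long in OCI-AML3 and 1529 bp in AML5. A domain at least double the length in OCI-AML3 was found in 7.36% of the 12183 genes with a domain in both lines, and 3 of the 8 members had one (MEIS2, MEIS3 and PKNOX2). This depended on the limit: under 40% in place of 20%, none of these 3 was at least double, at 4102 against 3121 bp in MEIS2, 7639 against 7121 bp in MEIS3 and 2953 against 2540 bp in PKNOX2. MEIS1 and PBX2, at 4506 against 1157 bp, then were.

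MEIS3 (ENSG00000105419, chr19:47906381-47922784, minus strand) is a short gene in a gene-dense region. Its promoter stood at 10.9% ± 19.8 (SD, 169 CpGs) in OCI-AML3 and 21.1% ± 24.1 in AML5, with 41 CpGs called lower and 10 higher. The island over the TSS, chr19:47921899-47923205, stood at 3.57% and 23.2%, with 29 CpGs called lower and 0 higher. The body stood at 58.5% ± 35.5 (SD, 364 CpGs) and 70.2% ± 32.5, with 100 called lower and 29 higher. Its island over exons 5 and 6, chr19:47917542-47918373, stood at 35.8% and 63.8%, and 16 of 37 CpGs were called lower and 0 higher. The island near the end of the gene, chr19:47909941-47910992, stood at 55.8% and 55.7%, yet 16 of its CpGs were called lower and 11 higher, so equal means covered single CpGs that differed. The low-methylation domain of MEIS3 was 3134 bp long in OCI-AML3 and 446 bp in AML5, and under a 40% limit 7639 and 7121 bp. MEIS3 has processed pseudogenes, MEIS3P1 (chr17:15689932-15690889) and MEIS3P2 (chr17:20492606-20493680), which share exon sequence with it. What uniquely mapped reads could miss in MEIS3 was not tested.

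PBX2 (ENSG00000204304, chr6:32152510-32157979, minus strand) is a broadly expressed PBX gene in the major histocompatibility complex. Its promoter stood at 15.8% ± 23.1 (SD, 80 CpGs) in OCI-AML3 and 43.6% ± 43.8 in AML5, with an interval of the difference in calls from -40.8 to -36.1 points. By the exact test 35 of the 80 CpGs were called lower and 0 higher, and 3.94% of all promoters had a lower difference. At the most upstream PBX2 starts the order was not that of the whole window. Around these 2 starts the levels were 6.27% and 1.77%, and the island there, chr6:32157426-32158234, stood at 7.26% and 0.418%, with 0 of 32 CpGs called in either direction by the exact test and an interval of the difference in calls from 1.98 to 5.21 points. The depth in that island was 18.4 calls per CpG for OCI-AML3 and 15.5 for AML5, the lowest of the islands over the starts.

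The lower levels at PBX2 lay on either side of that island. Upstream, the DMR chr6:32158927-32160236 stood at 14.9% and 71.04%, with 18 of 23 CpGs called lower, and the PBX2 stretch printed above is part of it. This DMR lies inside the neighbouring gene GPSM3 (chr6:32158543-32163300), a regulator of G-protein signalling in blood cells, so its CpGs belong to both genes. GPSM3 is also among the genes that the study had picked for lower methylation in these libraries. Downstream, a second cluster of 2 starts, 1125 bp after the TSS, stood at 20.5% and 71.4%, with 17 of 22 CpGs called lower, and the last cluster at 72.0% and 88.2%. Intron 1 stood at 1.73% and 40.8% and exon 3 at 55.8% and 94.0%. The body as a whole stood at 64.3% ± 37.6 (SD, 50 CpGs) and 93.5% ± 10.5, with 16 CpGs called lower and 0 higher, and exon 9, the last, at 41.5% and 97.6%. A processed pseudogene of PBX2, PBX2P1 (chr3:142895169-142896459), shares exon sequence with it, and what uniquely mapped reads could miss there was not tested. With a promoter window of 1000 bp the mean difference of PBX2 was 0.56 points in place of -27.8.

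**Figure D5:**
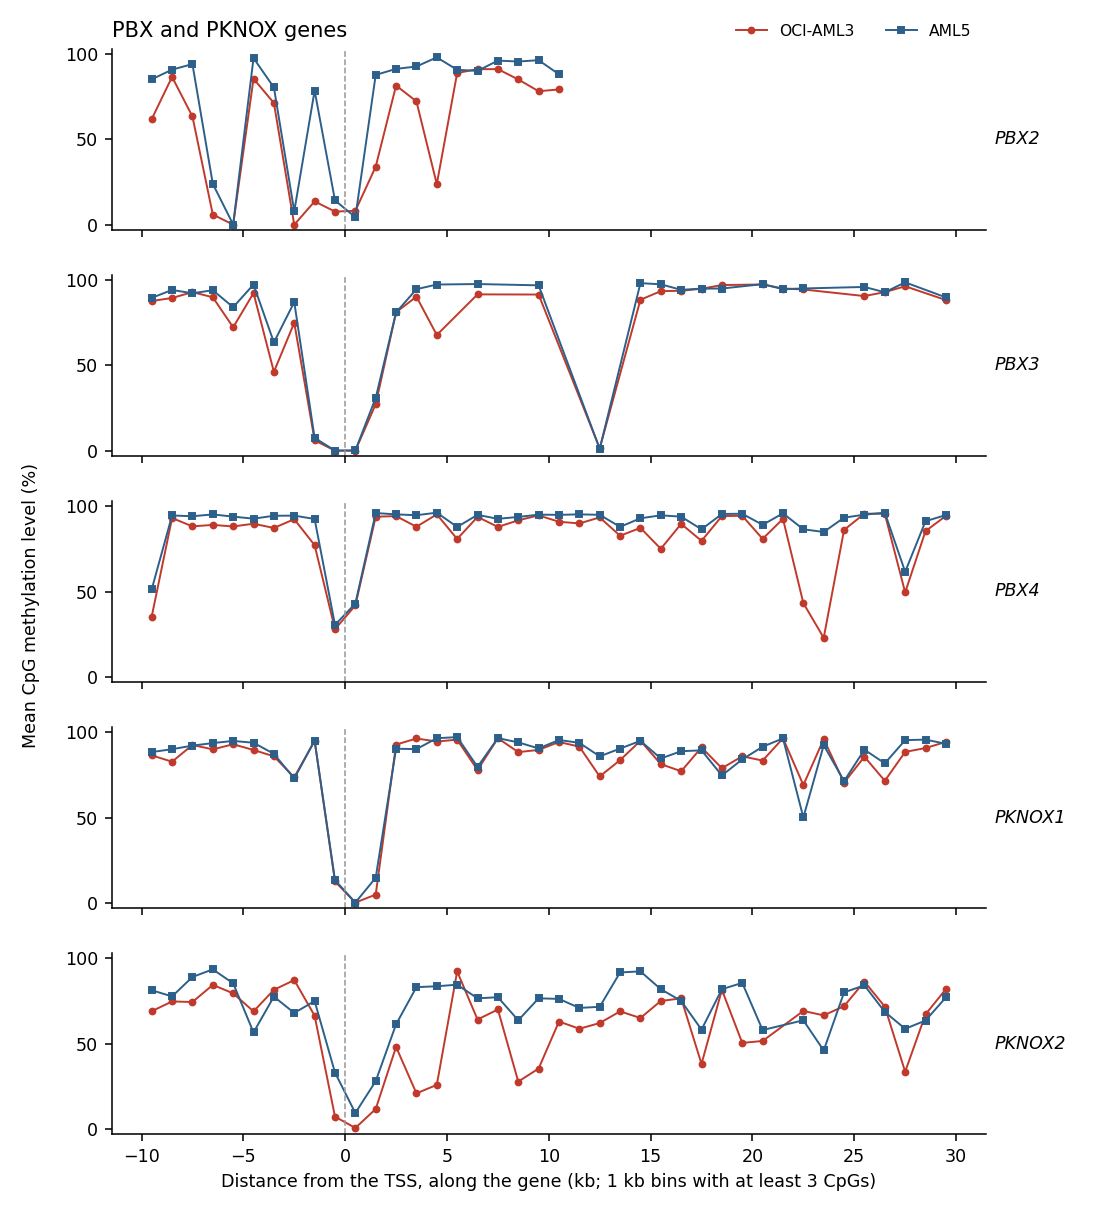
Mean CpG methylation level (%) in 1 kb bins with at least 3 CpGs, against the distance from the TSS along the gene (kb), for PBX2, PBX3, PBX4, PKNOX1 and PKNOX2, with circles for OCI-AML3 and squares for AML5. The lines of PKNOX1 nearly coincide, while those of PBX3 differ in part from 2 to 15 kb (mean over CpGs 55.1% against 64.3%). The OCI-AML3 line of PBX4 drops at 22 to 24 kb, and PKNOX2 stays lower in OCI-AML3 over much of the first 16 kb.

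PBX3 (ENSG00000167081, chr9:128509624-128729656, plus strand) encodes the PBX protein most often linked with HOXA9 and MEIS1 in leukaemia. Its promoter was all but free of methylation in both lines, at 3.62% ± 12.8 (SD, 366 CpGs) in OCI-AML3 and 4.20% ± 15.02 in AML5, with 4 CpGs called lower and 2 higher. Around its most upstream starts the levels were 0.107% and 0.111%. The body stood at 86.1% ± 25.1 (SD, 1446 CpGs) and 87.1% ± 25.6, with 51 called lower and 47 higher. From 2 to 15 kb after the TSS the levels were 55.1% and 64.3%, with 7 of 51 CpGs called lower and 0 higher. Of the genes of at least 15 kb, 28.7% had a lower difference there. A dip in the bin 12 kb after the TSS was present in both lines, at 1.42% and 1.14% over 16 CpGs.

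The main differences of PBX3 were small regions inside its long intron 2. The island chr9:128651340-128652653 stood at 27.1% in OCI-AML3 and 12.9% in AML5, with 23 of 94 CpGs called higher and 0 lower. Its first part, the DMR chr9:128651340-128652021, stood at 64.7% and 29.9%, with 21 of 32 called higher, and holds the PBX3 stretch printed above. In the other direction, the DMR chr9:128656909-128657296, less than 5 kb away, stood at 30.8% and 97.6% over 4 CpGs, of which 3 were called lower. In intron 6 the DMR chr9:128723561-128724033 stood at 52.0% and 85.1%.

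PBX4 (ENSG00000105717, chr19:19672516-19729502, minus strand) is a PBX gene known mainly from testis. Its promoter stood at 44.4% ± 43.2 (SD, 146 CpGs) in OCI-AML3 and 47.3% ± 45.9 in AML5, the highest level of the 8 promoters in both lines. Its low-methylation domain spanned 624 and 642 bp. Around the starts the levels were 14.5% and 13.8%. The body stood at 86.9% ± 19.5 (SD, 950 CpGs) and 92.5% ± 11.02, with 88 CpGs called lower and 2 higher. These were 9.26% and 0.211% of its CpGs, both below the 14.7% and 3.86% of all CpGs tested. Of the CpGs called lower, 61 lay among the 499 of intron 2, where 0 were called higher, and the largest region within it was the DMR chr19:19704787-19706477, which stood at 51.4% and 88.5% with 16 of 32 called lower. The depth of the PBX4 body was 35.5 calls per CpG for OCI-AML3 and 54.7 for AML5, and over 500 kb on either side 41.3 and 54.6, and the part of this difference in depth in the levels was not tested.

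PKNOX1 (ENSG00000160199, chr21:44394620-44454041, plus strand), also called PREP1, competes with MEIS proteins for PBX. Like PBX3, it differed little between the lines in the means of the promoter and the body. The promoter stood at 13.3% ± 31.8 (SD, 236 CpGs) in OCI-AML3 and 14.7% ± 33.3 in AML5, with 3 CpGs called lower and 1 higher. Its island, chr21:44393834-44396052, stood at 1.73% and 2.09%, with an interval of the difference in calls from -0.81 to 0.14 points. The body stood at 89.9% ± 17.1 (SD, 939 CpGs) and 90.8% ± 17.8, with 23 called lower and 20 higher. Over 500 kb on either side of PKNOX1 the levels were 74.9% and 80.7%. The DMR at the downstream edge of the island, chr21:44395796-44396375, stood at 9.40% and 29.2%, with 3 of 14 CpGs called lower.

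PKNOX2 (ENSG00000165495, chr11:125034583-125303285, plus strand), also called PREP2, is the longest of the 8 genes and has a narrower expression than PKNOX1. Its promoter stood at 8.18% ± 20.3 (SD, 220 CpGs) in OCI-AML3 and 21.9% ± 24.6 in AML5, with an interval of the difference in calls from -15.9 to -13.9 points, and 73 CpGs were called lower and 5 higher. At the cluster of 8 starts the levels were 0.65% and 16.5%, with 27 of 91 CpGs called lower and 0 higher. PKNOX2-DT, a transcript on the opposite strand, also starts within the promoter window, so its start cannot be told apart from these. The low-methylation domain was 2246 bp long in OCI-AML3 and 921 bp in AML5. From 2 to 15 kb after the TSS PKNOX2 stood at 55.1% and 76.0%, a difference of -20.9 points, and 7.23% of genes had a lower one.

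Deeper in PKNOX2 the differences ran both ways. Its body stood at 73.6% ± 30.1 (SD, 3377 CpGs) in OCI-AML3 and 78.6% ± 26.0 in AML5, with 449 CpGs called lower and 213 higher. The higher calls were 6.31% of its CpGs, against 7.97% in the body of MEIS3. Of all CpGs tested, 3.86% were called higher and 14.7% lower. In intron 2 alone, 100 CpGs were called lower and 81 higher of 1154, around means of 77.4% and 78.4%. The intron 2 island chr11:125133120-125133685 stood at 48.6% and 71.7%, whereas the DMR chr11:125101660-125102526 in intron 1 stood at 95.6% and 70.8%. Introns 3 to 7 stood between 64.4% and 75.8% in OCI-AML3 and between 70.7% and 85.2% in AML5.

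In order of the promoter level, OCI-AML3 ran from PBX3 through PKNOX2, MEIS3, MEIS2, PKNOX1, MEIS1 and PBX2 to PBX4, and AML5 from PBX3 through MEIS1, PKNOX1, MEIS3, PKNOX2, MEIS2 and PBX2 to PBX4. The 5 members between PBX3 and PBX2 spanned 8.18% to 15.02% in OCI-AML3. With 1 library per line the spread of a promoter mean between samples is unknown, so neighbours in that order cannot be told apart. The most upstream starts were at under 1% in both lines in PBX3 and PKNOX1, and at under 5% in OCI-AML3 only in MEIS2, MEIS3 and PKNOX2, which stood at 16.5% to 21.2% in AML5. MEIS1 (36.5% against 3.88%) and PBX2 (6.27% against 1.77%) were at under 5% in AML5 only, and PBX4 (14.5% and 13.8%) in neither line.

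In RefSeq promoter sequences (GRCh38.p14, 300 bases from 250 before to 50 after a start), 7 of the 8 genes were found, with 9 promoters in all, and PKNOX2 was not among them. The core MEIS motif TGACAG, searched on both strands, was present in 1 of the 9, that of PBX3, and in 15.8% of the 35116 promoters in the table. The HOX and PBX motif TGATTNAT was present in 1 of the 9, a MEIS2 promoter, and in 2.82% of all promoters. In the number of CpGs per promoter PKNOX1 (46) and PBX3 (43) led and PBX2 was lowest (8), against a median of 14.

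The other TALE homeobox genes moved in both directions. Of the 9 listed (TGIF1, TGIF2, IRX1 to IRX6 and MKX), 5 promoters were lower in OCI-AML3, 1 of them by over 20 points. Another 1 was higher by over 20 points, and the median difference was -0.38 points. Of all promoters, 84.7% were lower, 8.61% lower by over 20 points and 1.79% higher by over 20 points, with a median of -4.68 points. MKX, a regulator of tendon development that the study had chosen on these libraries, stood at 0.137% and 33.9%. IRX4, a heart ventricle gene, stood at 73.6% and 41.4%, with 91.2 calls per CpG in OCI-AML3 against 32.0 in AML5. Of their bodies 3 were lower by over 20 points (IRX3, IRX5 and MKX, of which IRX5 was also on the list of the study). By that much 0 were higher. Of all bodies, 7.58% were lower and 0.541% higher by over 20 points. Of the 8 partners and targets of MEIS1 in leukaemia (HOXA7, HOXA9, HOXA10, FLT3, MYB, MEF2C, CDK6 and PBXIP1), 5 promoters were lower, 2 of them by over 20 points, with a median difference of -2.26 points. These were HOXA9, at 0.258% in OCI-AML3 and 31.2% in AML5, and HOXA10, at 2.13% and 63.7%. All 8 bodies of that list were lower, 2 by over 20 points, with a median difference of -8.62 points. A lower body was the common case, found in 92.9% of all bodies, with a median difference of -4.93 points.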

How the data were processed

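Whole-genome bisulfite sequencing was done on 1 library each of OCI-AML3 and AML5. The deposited files hold, per CpG, counts of methylated and unmethylated reads, which the authors made with Bismark (with Bowtie 0.12.8, per the submitters' processing notes) on hg19 from uniquely mapped reads. Removal of duplicates and of C-to-T variants, which read as unmethylated, is not given in the sources used here. Each position listed on chromosomes 1 to 22, X and Y was checked against a CpG of GRCh37 and genes were taken from GENCODE 44 lifted to GRCh37, so a TSS can differ from that of the study.

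CpGs with more than 5 reads in both lines were used, in regions of at least 10 such CpGs. Levels were smoothed by local likelihood (quadratic, 1000 bp on either side or 70 CpGs if wider, ridge 0.001), and DMRs were runs of at least 3 CpGs whose 95% intervals did not overlap, with gaps of at most 300 bp. The comparison of smoothed intervals follows the study, while the minimum of 3 CpGs and the gap were set here, and gave 935422 lower and 177397 higher DMRs genome-wide, so these are not the DMRs of the study. Per-CpG tests were Fisher's exact test with Benjamini-Hochberg adjustment. Scripts were tested on simulated data and ran in Python 3.11.15 with numpy 2.4.6, numba 0.67.0 and pandas 2.3.3. All 8 genes were named by rule, with every island and up to 2 DMRs per direction in each, and 2 further gene lists. Members and lists were chosen with earlier results of these data known. The low-methylation domain, the levels by transcript start and by exon, and the regions from 2 to 15 kb and 500 kb around genes were added after the files had been seen. Intervals cover counting error only, and they treat calls as independent. Calls from 1 read are not, so the intervals can be too narrow. They belong to the share of all calls, so they can leave out the difference in mean level beside them. For the MEIS1 body that difference was -35.3 points, with an interval from -41.2 to -39.9 points.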

Additional observations from a re-analysis of the deposited data

How the results depend on the processing

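No paired analysis was possible because each line had 1 library. With a threshold of 10 points in place of 20, 4 promoters, 4 bodies and 9 islands were lower in OCI-AML3 and 2 islands higher. With 30 points 0 promoters, 1 body and 3 islands were lower. Over all genes the 25th percentile of the difference was -10.3 points for promoters and -10.05 points for bodies. The 5th percentile was -25.4 and -23.7 points. For all islands these percentiles were -7.72 and -24.4 points. A promoter window of 1000 bp left 0 promoters lower, and with it the PBX2 promoter difference became 0.56 points, while 2000 bp upstream only gave 2. Islands of at least 35 CpGs per 500 bp left 2 lower. DMR counts depended on the rule: 345 lower and 64 higher became 160 and 35 with at least 10 CpGs, 102 and 13 with a mean difference of at least 20 points, and 129 and 20 unsmoothed, and 111 and 47 without a gap limit. The numbers of CpGs called by the exact test stayed within 1.5 times of the reported ones under the alternatives run for them. Of 56 promoter differences recomputed, 32 moved by less than their counting interval, 23 moved by more and 1 reversed, and of 40 body differences 27 and 13 with none reversed. The causes were not tested. Other limits for the low-methylation domain, with which MEIS3 in AML5 went from 446 to 0 bp (10%) and 7121 bp (40%), and likeness over 17 bins were chosen after seeing the data.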

Other observations

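The region just after the end of MEIS1 carried little methylation in both lines. In the bins from 141 to 145 kb after the TSS of MEIS1, beyond its last exon, OCI-AML3 stood between 1.37% and 23.2% and AML5 between 4.60% and 28.2%, and in the 10 kb after the gene end 37 CpGs were called lower and 50 higher by the exact test, of 329. After the end of MEIS2 the levels over 10 kb were 54.6% and 48.8%, with 33 of 259 CpGs called lower and 55 higher, the reverse of the MEIS2 body. Across the upstream edge of the MEIS2 promoter island, chr15:37392157-37395183, a DMR higher in OCI-AML3, chr15:37394666-37395505, stood at 50.4% and 36.2%, with 14 of 36 CpGs called higher and 2 lower, next to starts that were lower.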
